A study of Homo sapiens with 9 samples.

Results

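The MYC, MAX and MXD network is a set of transcription factors that share DNA sites and compete for dimer partners. The 10 genes described here are MYC, MAX, MXD1, MXD3, MXD4, MXI1, MNT, MLX, MLXIP and MGA. They were taken by gene symbol from a deposited expression table of 60612 genes, each symbol matched 1 row, and all 10 passed the filter on low counts and are among the 15345 genes tested. The study used MDA-MB-231, an established human triple-negative breast cancer line, and compared the transcriptome with and without depletion of MILIP, a noncoding transcript induced by MYC. RNA was sequenced 48 hours after transfection with MILIP siRNA1, MILIP siRNA2 or a negative control siRNA, with 3 libraries per group and 9 in all. All groups were the same unmodified line carried through the same lipid transfection. The treatment text calls the target PLANE, while the sample labels and the title name MILIP.

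MYC binds the E-box, the DNA word CACGTG, as a dimer with MAX and raises transcription of genes for growth, ribosome production and division. The MXD proteins (MXD1, MXI1, MXD3 and MXD4) and MNT also need a partner such as MAX, bind the same word and bring in SIN3 and histone deacetylases, which lower transcription. MGA pairs with MAX inside a Polycomb complex. MLX is a MAX-like partner of MLXIP (also called MondoA), a glucose-sensing activator, and it can pair with MXD1, MXD4 and MNT as well.

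Total gene counts were 15281220 to 19759371 per library, and the 10 genes had between 117 and 2365 counts in each library. No label ties the replicate libraries to separate cultures, so p-values measure only library-to-library spread, part or all of which may be technical. In bulk RNA, fewer cells with a transcript and less of it per cell cannot be told apart. All 5 markers of the line were present, but some differed between groups. VIM was at 859 to 930 FPKM with siRNA1 and 760 to 806 FPKM with siRNA2, against 875 to 946 FPKM with the control siRNA. CD44 was at 62.7 to 68.8 FPKM with siRNA1 and 90.1 to 94.1 FPKM with siRNA2, against 77 to 87.8 FPKM with the control siRNA. AXL was at 19.6 to 20.8 FPKM with siRNA1 and 51.3 to 54.5 FPKM with siRNA2, against 187 to 201 FPKM with the control siRNA. ZEB1 was at 4.91 to 5.34 FPKM with siRNA1 and 6.81 to 7.33 FPKM with siRNA2, against 8.21 to 9.9 FPKM with the control siRNA. LOX was at 1.12 to 1.28 FPKM with siRNA1 and 3.79 to 4.05 FPKM with siRNA2, against 1.76 to 2.49 FPKM with the control siRNA. The hormone receptor genes ESR1 and PGR were at most 0.07 FPKM. ERBB2, the other receptor gene looked at, was present. It was at 4.94 to 5.6 FPKM with siRNA1 and 6.51 to 7.39 FPKM with siRNA2, against 5.64 to 6.16 FPKM with the control siRNA. Of the epithelial markers, KRT19 was at 82.3 to 101 FPKM with siRNA1, 104.3 to 114.7 FPKM with siRNA2 and 66.3 to 82.3 FPKM with control. EPCAM was at 1.81 to 2.88 FPKM with siRNA1 and 1.31 to 1.4 FPKM with siRNA2, against 2.03 to 2.59 FPKM with control. CDH1 and ESRP1 were at most 0.38 FPKM. FPKM is the authors' read count per kilobase of exonic gene size and per 1000000 counts. Of the leukocyte markers CD3E had no count in any library, and the fibroblast markers DCN and LUM were at most 0.02 FPKM. The summed fibroblast list was 6.05 to 6.93 FPKM with siRNA1, 7.97 to 8.19 FPKM with siRNA2 and 1.43 to 1.71 FPKM with the control siRNA, mostly COL1A1. The summed leukocyte list was 0.43 to 1.35 FPKM with siRNA1, 4.94 to 5.35 FPKM with siRNA2 and 1.05 to 1.65 FPKM with the control siRNA, nearly all of it CD14. The part of these genes in the results below was not tested.

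MILIP, listed as MAFG-DT (ENSG00000265688), checks the knockdown. Its level was 0.64, 0.33 and 1.01 FPKM with siRNA1 and 0.28, 0.51 and 0.18 FPKM with siRNA2, against 4.33, 4.35 and 4.53 FPKM with the control siRNA. Every siRNA library lay below every control library. MILIP fell with siRNA1 by a fitted log2 fold change of -2.74 (SE 0.256, adjusted p = 2.51e-09) and with siRNA2 by -3.73 (SE 0.287, adjusted p = 5.34e-11). These and all later adjusted p-values come from the quasi-likelihood test of edgeR, adjusted by Benjamini and Hochberg's method over all genes tested, and "rose", "fell" and "called" mean an adjusted p below 0.05.

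Because the network acts through the E-box, the sequence next to each gene's start is shown where it holds that word. Upstream windows of 250 bases were available in a RefSeq table (GRCh38.p14) for 9 of the 10 genes, 14 windows in all, and MYC is named without one. CACGTG, which reads the same on both strands, was searched in these windows and lies in those of MXD4, MNT and MLX, which is 3 of the 9 genes. Of 10796 tested genes with such windows, 11% hold it, and 7.73% of all 27305 genes in the table. The stretch between MILIP and its head-to-head neighbour MAFG, 93 bases long, holds 1 copy that begins 83 bases before the start of MILIP. Below, the E-box is in capitals and each stretch is the part of the window outside annotated exons of its own gene. MXD1 is added because it changed most with siRNA2 and its window, at the RefSeq start inside the deposited gene interval, has no copy.
MILIP and MAFG gap, chr17:81927736-81927828, plus strand: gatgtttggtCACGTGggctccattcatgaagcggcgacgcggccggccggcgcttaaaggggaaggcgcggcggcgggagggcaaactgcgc
MXD4, chr4:2262295-2262359, minus strand: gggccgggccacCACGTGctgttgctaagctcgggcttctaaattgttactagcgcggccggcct
MNT, chr17:2401119-2401310, minus strand: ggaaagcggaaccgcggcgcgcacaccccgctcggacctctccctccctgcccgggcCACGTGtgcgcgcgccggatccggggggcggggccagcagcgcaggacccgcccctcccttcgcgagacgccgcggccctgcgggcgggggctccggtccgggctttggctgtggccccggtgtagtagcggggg
MLX, chr17:42566850-42567067, plus strand: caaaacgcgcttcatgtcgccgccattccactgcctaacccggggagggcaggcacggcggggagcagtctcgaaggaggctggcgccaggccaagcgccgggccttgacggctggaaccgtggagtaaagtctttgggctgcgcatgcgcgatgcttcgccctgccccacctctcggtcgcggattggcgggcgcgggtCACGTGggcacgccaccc
MXD1, chr2:69914859-69915040, plus strand: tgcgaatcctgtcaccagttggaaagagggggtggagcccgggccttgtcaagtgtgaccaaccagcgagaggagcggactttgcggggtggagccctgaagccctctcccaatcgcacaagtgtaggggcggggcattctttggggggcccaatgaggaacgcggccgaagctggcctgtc
A copy of the word describes these letters and is not a measured binding site.

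The network genes that were called differed between the 2 siRNAs. With siRNA1, 3 of the 10 genes rose (MXD4, MXD3 and MXI1) and 3 fell (MNT, MXD1 and MLXIP), where 50.4% of all tested genes were called in either direction. With siRNA2, 3 rose (MXD1, MXD4 and MAX) and 4 fell (MYC, MLX, MGA and MXD3), where 56.1% of all tested genes were called. Between the siRNAs, 4 members were higher with siRNA2 than with siRNA1 (MXD1, MXD4, MNT and MLXIP) and 4 were lower (MXD3, MLX, MYC and MGA), where 60.4% of all tested genes were called. These counts of members lie near the background. The libraries did not overlap, on the scaled counts, for 9 members with siRNA1 (53.8% of all tested genes), 7 with siRNA2 (61.8%) and 8 between the siRNAs (65.5%). The median log2 fold change of the 10 genes was 0.01 with siRNA1 and -0.04 with siRNA2, against 0.0032 and -0.01 over all tested genes. Called with both siRNAs were 3 members, where 32.8% of tested genes were. MXD4 rose with both siRNAs, where 11.8% of tested genes did. MXD1 and MXD3 were called in opposite directions with the 2 siRNAs, where 9.93% of tested genes were, and 0 members fell with both, where 11.1% of tested genes did. Both comparisons share the control libraries. A change of at least 2-fold was seen for MXD1 and MXD4 with siRNA2, where 10.9% of all tested genes were called at that size.

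**Figure D1:**
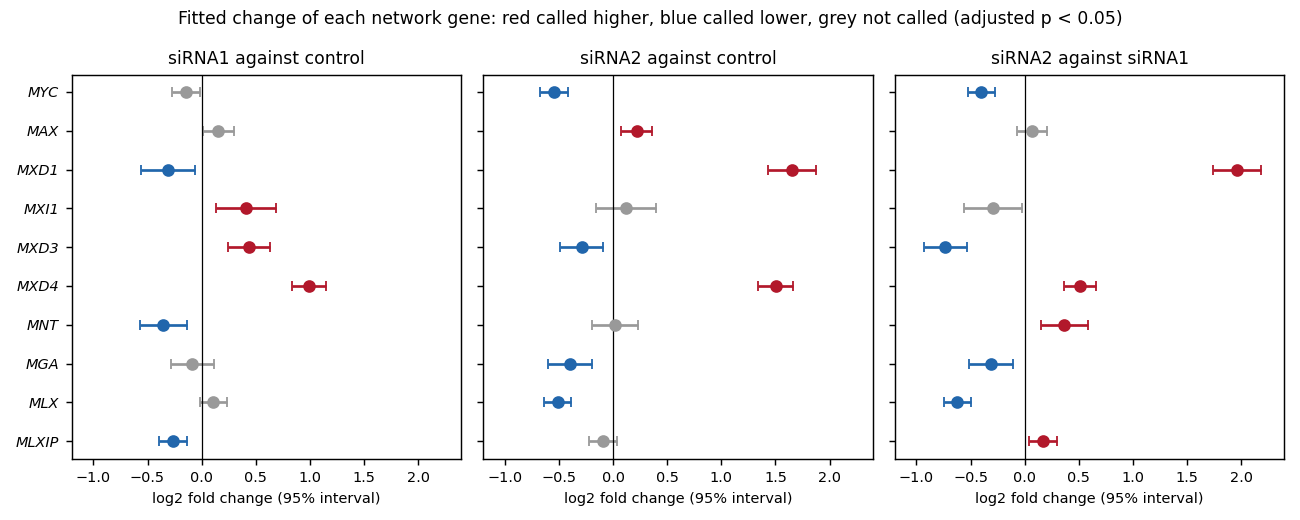
Fitted log2 fold change of each network gene (horizontal axis) with its 95% interval in the 3 comparisons, called higher in red, called lower in blue and not called in grey. MXD4 is to the right of 0 in all 3 panels, and MXD1 lies at -0.31 with siRNA1 and 1.65 with siRNA2.

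Per length, MYC and MLX had higher levels than the other network transcripts in control cells. MYC averaged 27.1 ± 0.8 FPKM and MLX 26.3 ± 0.448 FPKM (SD, n = 3 each), and their libraries overlapped. MAX (8.97 ± 0.286 FPKM) and MLXIP (8.45 ± 0.529 FPKM) followed and overlapped each other, then MXD4 (5.24 ± 0.312 FPKM) and MXD3 (4.89 ± 0.27 FPKM), which also overlapped. MGA (2.66 ± 0.465 FPKM), MNT (2.58 ± 0.0737 FPKM) and MXI1 (2.07 ± 0.405 FPKM) formed a low group in which each overlapped the next, and MXD1 was at the bottom with 1.45 ± 0.191 FPKM. The median tested gene had 3.83 FPKM in the control libraries, so MYC stood above 88.3% and MXD1 above 32.4% of tested genes. With siRNA2 the order changed. MYC (18.6 ± 0.378 FPKM) and MLX (18.5 ± 0.62 FPKM) still led and overlapped. MXD4 came next at 14.8 ± 1.41 FPKM without overlap with MAX (10.4 ± 0.475 FPKM), and MXD1 stood above MNT, MXI1 and MGA. With siRNA1, MLX (28.9 ± 1.52 FPKM) was above MYC (25 ± 0.964 FPKM) without overlap, and MXD4 (10.6 ± 0.0907 FPKM) came next and overlapped MAX.

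**Figure D2:**
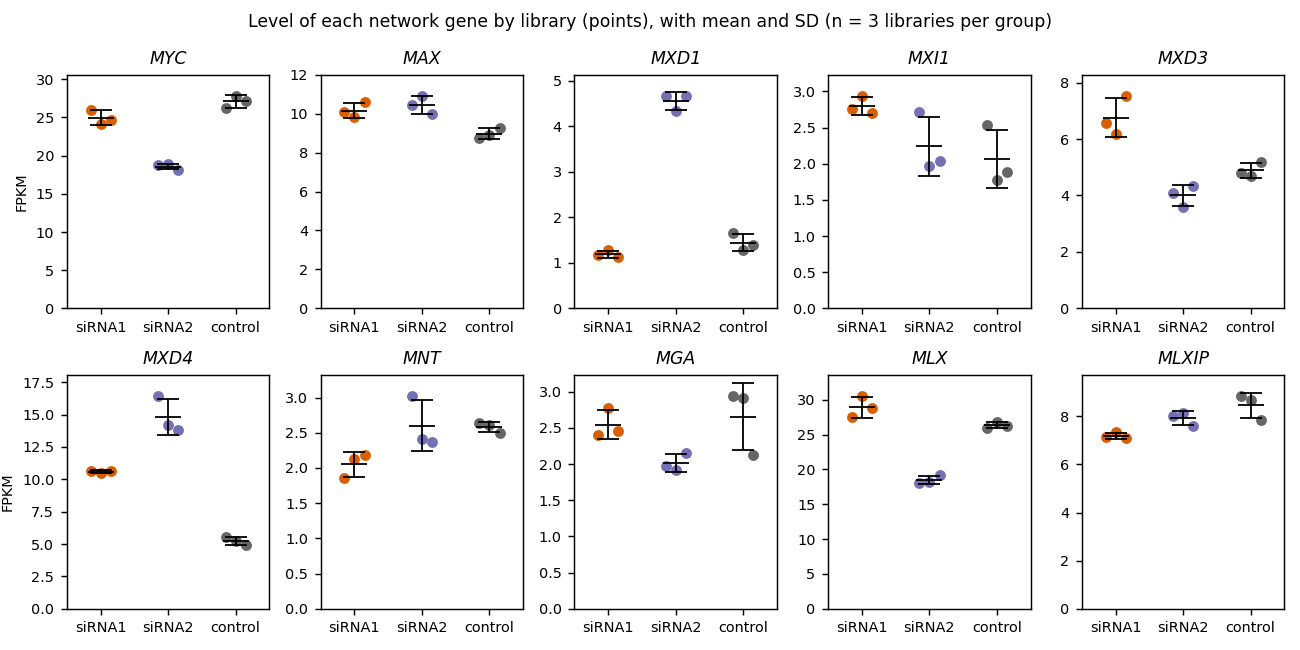
Level of each network gene in FPKM (vertical axis, from 0) in the 9 libraries, with siRNA1, siRNA2 and control from left to right. Points are libraries and bars the mean and SD of 3. MXD4 shows 3 separate levels, and MXD1 is high in the siRNA2 libraries alone.

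MYC (ENSG00000136997, chromosome 8, plus strand), the activator of the network, fell with siRNA2. It was at 26.03, 24.16 and 24.69 FPKM with siRNA1 and 18.72, 18.85 and 18.14 FPKM with siRNA2, against 26.25, 27.84 and 27.2 FPKM with the control siRNA. All siRNA2 libraries lay below all others, and the siRNA1 libraries lay just below the control libraries. Its siRNA2 log2 fold change of -0.55 (SE 0.0615, adjusted p = 4.24e-08) corresponds to 0.685 of the control level (95% interval 0.627 to 0.748). With siRNA1 the log2 value was -0.15 (SE 0.0608) with an adjusted p of 0.05001, on the uncalled side of the threshold, and a 95% interval of -0.27 to -0.02. That value passed in 4 of 14 alternatives, among them without control library 1 (adjusted p = 0.0418) and without siRNA1 library 1 (0.0396). Set against siRNA1, siRNA2 gave less MYC (log2 fold change -0.40, SE 0.0614, adjusted p = 4e-06).

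The paralogs of MYC added little RNA. MYCN had 0 counts in every library, which allows up to 3 counts each, or 0.152 to 0.198 counts per 1000000. MYCL, at 0.01 to 0.11 FPKM over the 9 libraries, was below the filter and was not tested.

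MAX (ENSG00000125952, chr14:65006174-65102695, minus strand) is the partner that MYC, the MXD proteins, MNT and MGA share. Its level was 10.06, 9.8 and 10.58 FPKM with siRNA1 and 10.42, 10.91 and 9.96 FPKM with siRNA2, against 8.72, 8.9 and 9.28 FPKM with the control siRNA. Both siRNA groups lay above the control libraries and overlapped each other. MAX rose with siRNA2 (log2 fold change 0.22, SE 0.069, adjusted p = 0.0092), a call lost without siRNA2 library 2 (adjusted p = 0.0573). With siRNA1 the log2 fold change of 0.15 did not pass (SE 0.0693, adjusted p = 0.0716). It passed in 4 of 14 alternatives, among them without siRNA1 library 2 (adjusted p = 0.0389) and with limma on log2(FPKM + 1) (adjusted p = 0.0299). The difference of siRNA2 from siRNA1 was 0.07, with a 95% interval of -0.07 to 0.21 and an adjusted p of 0.417.

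MXD4 (ENSG00000123933, chr4:2247432-2262109, minus strand), a repressor of the MXD family, rose with both siRNAs. It was at 10.67, 10.5 and 10.64 FPKM with siRNA1 and 16.43, 14.2 and 13.81 FPKM with siRNA2, against 5.57, 5.2 and 4.95 FPKM with the control siRNA. The 3 groups did not overlap. The rise was 1.99-fold with siRNA1 (log2 fold change 0.99, SE 0.0781, adjusted p = 1.12e-10) and 2.83-fold with siRNA2 (log2 fold change 1.50, SE 0.0773, adjusted p = 3.35e-14). MXD4 was higher with siRNA2 than with siRNA1 (0.51, SE 0.0731, adjusted p = 1.47e-06). These calls held in all 14 alternatives.

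MXD1 (ENSG00000059728, chr2:69897688-69942945, plus strand), a repressor known for its rise as cells differentiate, moved in opposite directions. It was at 1.17, 1.28 and 1.12 FPKM with siRNA1 and 4.67, 4.33 and 4.67 FPKM with siRNA2, against 1.66, 1.29 and 1.39 FPKM with the control siRNA. The siRNA2 libraries stood above all others, while the siRNA1 libraries lay just below the control libraries. With siRNA2 it rose 3.15-fold (log2 fold change 1.65, SE 0.107, adjusted p = 2.13e-12). With siRNA1 it fell by 0.31 on the log2 scale (SE 0.123, adjusted p = 0.0379), a call lost in 8 of 14 alternatives, among them without control library 1 (-0.20, adjusted p = 0.222), without siRNA1 library 1 (adjusted p = 0.0781) and without siRNA1 library 3 (adjusted p = 0.128). The difference of siRNA2 from siRNA1 was 1.96 (SE 0.109, adjusted p = 7.2e-14). MXD1 shares 237 exonic bases with SNRNP27 on the same strand.

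MXD3 (ENSG00000213347, chr5:177301461-177312757, minus strand), an MXD member known from dividing cells, rose with siRNA1 and fell with siRNA2. It was at 6.56, 6.18 and 7.53 FPKM with siRNA1 and 4.1, 3.58 and 4.33 FPKM with siRNA2, against 4.79, 4.69 and 5.2 FPKM with the control siRNA. The 3 groups did not overlap. The rise with siRNA1 was 0.44 on the log2 scale (SE 0.095, adjusted p = 0.000415), and siRNA2 gave a log2 fold change of -0.29 (SE 0.0983, adjusted p = 0.0137). The call with siRNA2 was lost without control library 3 (adjusted p = 0.0704) and without siRNA2 library 2 (adjusted p = 0.104). MXD3 shares 1158 exonic bases with PRELID1 on the opposite strand and 926 with RAB24 on the same strand, of an exonic size of 5154 bases. RAB24 had 264, 296 and 340 counts with siRNA1 and 487, 485 and 390 counts with siRNA2, against 322, 300 and 348 counts with the control siRNA, and its part in the MXD3 values was not tested.

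MXI1 (ENSG00000119950, chr10:110207605-110287365, plus strand), the MXD family member first described as a MAX interactor, was at 2.76, 2.94 and 2.7 FPKM with siRNA1 and 2.71, 1.97 and 2.04 FPKM with siRNA2, against 2.53, 1.78 and 1.89 FPKM with the control siRNA. In siRNA2 and in control, library 1 stood above the other 2, and these groups overlapped. MXI1 rose with siRNA1 (log2 fold change 0.41, SE 0.133, adjusted p = 0.0126), which no longer passed when control library 2 (adjusted p = 0.0852) or control library 3 (adjusted p = 0.0508) was left out. With siRNA2 the log2 fold change was 0.12, with a 95% interval of -0.16 to 0.39 and an adjusted p of 0.489. The difference of siRNA2 from siRNA1 (-0.29, adjusted p = 0.0539) did not pass, and it passed without siRNA2 library 1 (-0.47, adjusted p = 0.005) and with the replicate number as a block (-0.31, adjusted p = 0.0199).

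MNT (ENSG00000070444, chr17:2384073-2401104, minus strand), a repressor found in most cell types, was at 1.85, 2.13 and 2.18 FPKM with siRNA1 and 3.02, 2.41 and 2.37 FPKM with siRNA2, against 2.64, 2.61 and 2.5 FPKM with the control siRNA. It fell with siRNA1 (log2 fold change -0.35, SE 0.106, adjusted p = 0.00708), and the siRNA2 libraries overlapped the control libraries (0.01, 95% interval -0.20 to 0.23, adjusted p = 0.924). MNT was higher with siRNA2 than with siRNA1 (0.37, SE 0.104, adjusted p = 0.00378), a call lost without siRNA2 library 1 (0.24, adjusted p = 0.0618).

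The MYC to repressor balance of the RNA moved the same way with both siRNAs, but not all of its genes did. With siRNA1 MYC was not called and MXD1 and MNT fell, and with siRNA2 MXD3 fell. The summed level of the 4 MXD genes and MNT was 23.4 ± 0.664 FPKM with siRNA1 and 28.2 ± 2.38 FPKM with siRNA2, against 16.2 ± 0.851 FPKM with the control siRNA (SD, n = 3 each). MYC divided by that sum was 1.02 to 1.13 in siRNA1 libraries and 0.605 to 0.712 in siRNA2 libraries, against 1.53 to 1.79 in control libraries, with no overlap between any 2 groups. MXD4 made up 45.3% ± 1.2 of the sum with siRNA1 and 52.5% ± 1.54 with siRNA2, against 32.3% ± 1.17 with the control siRNA. MXD1 made up 5.09% ± 0.462 with siRNA1 and 16.2% ± 1.04 with siRNA2, against 8.89% ± 0.7 with the control siRNA. MXD3 made up 28.8% ± 2.18 with siRNA1 and 14.2% ± 1.46 with siRNA2, against 30.2% ± 2.39 with the control siRNA. These are ratios of RNA levels over genes chosen with results known, given as a description with no test, and they say nothing of protein amounts. FPKM divides by the exonic size of each gene, 4584 bases for MYC and 8701 bases for MNT. Whether MYC lies above or below the sum therefore depends on those annotated sizes.

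**Figure D3:**
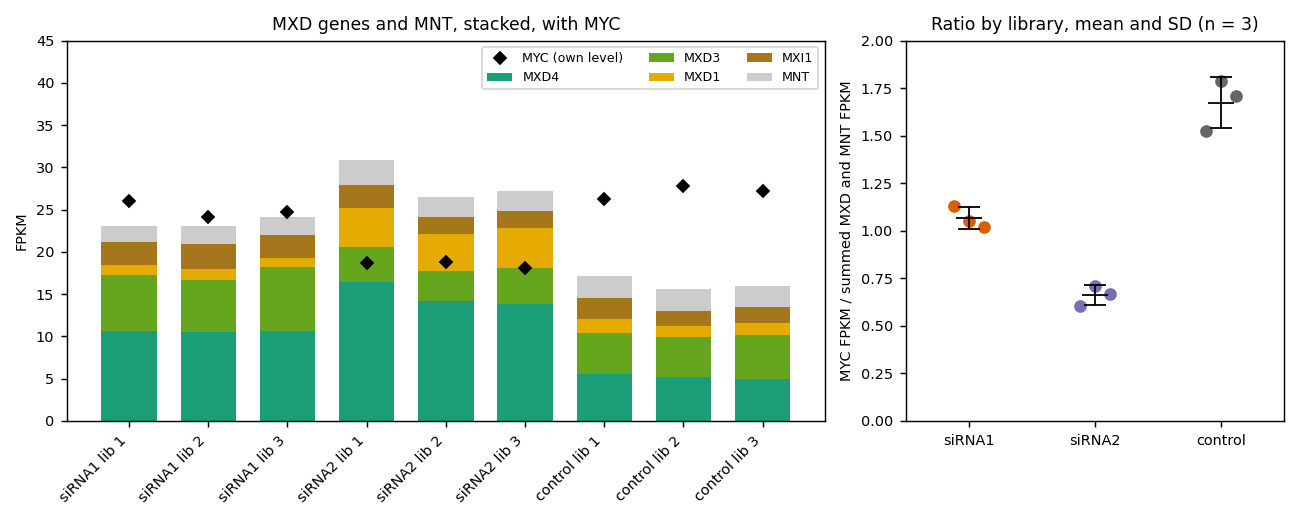
Left, FPKM (vertical axis) of the MXD genes and MNT stacked for each library, with the level of MYC as a diamond. Right, MYC divided by that sum in each library, with mean and SD of 3 libraries per group. MYC lies above the stack in every siRNA1 and control library and below it in every siRNA2 library.

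MGA (ENSG00000174197, chr15:41621224-41773081, plus strand), which links MAX to Polycomb, was at 2.4, 2.77 and 2.46 FPKM with siRNA1 and 1.97, 1.92 and 2.15 FPKM with siRNA2, against 2.94, 2.91 and 2.12 FPKM with the control siRNA. Control library 3 was lower than the other 2 control libraries and lay within the siRNA2 range, while on the scale of the fit the siRNA2 and control libraries did not overlap. MGA fell with siRNA2 (log2 fold change -0.40, SE 0.0975, adjusted p = 0.00119). With siRNA1 the log2 fold change was -0.09 (95% interval -0.29 to 0.11, adjusted p = 0.481), and it was -0.23 with an adjusted p of 0.018 without control library 3. MGA was lower with siRNA2 than with siRNA1 (-0.31, SE 0.0972, adjusted p = 0.00781), a call lost with limma on log2(FPKM + 1) (adjusted p = 0.0587) and on log2(FPKM + 0.1) (adjusted p = 0.0555).

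Of the 11 tested genes of the MGA complex list, 2 rose and 5 fell with siRNA1, and 4 rose and 4 fell with siRNA2. Over all tested genes 25.1% rose and 25.3% fell with siRNA1, and 27.2% rose and 28.9% fell with siRNA2. PCGF6, the Polycomb ring finger protein particular to that complex, fell with both (log2 fold change -0.70 with siRNA1, -0.26 with siRNA2). E2F6, its E2F family subunit, rose with both (0.27 with siRNA1, 0.52 with siRNA2). RYBP and RNF2, subunits shared with other Polycomb complexes, fell with siRNA1 (-0.82 and -0.25) and rose with siRNA2 (0.38 and 0.46).

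MLX (ENSG00000108788, chr17:42567068-42573239, plus strand), the partner in the parallel dimer set, fell with siRNA2. It was at 27.49, 30.52 and 28.77 FPKM with siRNA1 and 18.01, 18.24 and 19.18 FPKM with siRNA2, against 25.98, 26.84 and 26.19 FPKM with the control siRNA. The 3 groups did not overlap, with siRNA1 highest. MLX fell with siRNA2 by 0.51 on the log2 scale (SE 0.0612, adjusted p = 1.1e-07). Its siRNA1 value was 0.11 (95% interval -0.02 to 0.23, adjusted p = 0.139). MLX was lower with siRNA2 than with siRNA1 (-0.62, SE 0.0609, adjusted p = 2.99e-09). MLX shares 770 exonic bases with PSMC3IP on the opposite strand, and no source used here gives how the counting treated strand.

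MLXIP (ENSG00000175727, chr12:122078756-122147344, plus strand) was at 7.13, 7.33 and 7.08 FPKM with siRNA1 and 8.02, 8.15 and 7.58 FPKM with siRNA2, against 8.84, 8.67 and 7.85 FPKM with the control siRNA. It fell with siRNA1 (log2 fold change -0.26, SE 0.0627, adjusted p = 0.00115), where all libraries lay below the control libraries. With siRNA2 the libraries overlapped the control libraries (-0.09, 95% interval -0.22 to 0.03, adjusted p = 0.203). Its difference of siRNA2 from siRNA1 (0.17, adjusted p = 0.0239) lost its call in 6 of 14 alternatives, among them without siRNA1 library 1 (adjusted p = 0.0583), siRNA1 library 3 (0.0716), siRNA2 library 1 (0.0857) or siRNA2 library 2 (0.0943). MLXIPL, the paralog of MLXIP known as the carbohydrate response factor ChREBP, was low, with 19, 26 and 40 counts with siRNA1 and 28, 19 and 21 counts with siRNA2, against 9, 6 and 2 counts with the control siRNA. It rose with both siRNAs by a log2 fold change of 2.15 with siRNA1 (SE 0.431, adjusted p = 0.000191) and 1.78 with siRNA2 (SE 0.446, adjusted p = 0.00146).

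All 8 genes on the list of MondoA targets were called with each siRNA, where 50.4% of all tested genes were called with siRNA1 and 56.1% with siRNA2. With siRNA1 7 were higher and 1 lower, and with siRNA2 5 were higher and 3 lower. Over all tested genes 25.1% were higher and 25.3% lower with siRNA1, and 27.2% were higher and 28.9% lower with siRNA2. The median log2 fold change was 0.63 with siRNA1 and 0.59 with siRNA2. TXNIP, an inhibitor of glucose uptake, was at 26.3 ± 1.93 FPKM with siRNA1 and 19.2 ± 0.759 FPKM with siRNA2, against 10.8 ± 0.548 FPKM with the control siRNA (SD, n = 3 each). Its arrestin relative ARRDC4 rose with both (log2 fold change 0.88 with siRNA1, 1.24 with siRNA2), as did PDK4, a kinase that restrains pyruvate oxidation (2.28 with siRNA1, 1.12 with siRNA2), which had 9 to 14 counts in control libraries. HK2, the hexokinase of glucose use, fell with both (-1.29 with siRNA1, -0.86 with siRNA2). PFKFB3 and KLF10, also on the list, rose with siRNA1 (0.88 and 0.38) and fell with siRNA2 (-0.42 and -0.17).

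Of 45 genes that MYC is known to activate, all tested, 27 fell, 5 rose and 13 were not called with siRNA1. With siRNA2 38 fell, 2 rose and 5 were not called. That is 60% lower with siRNA1 and 84.4% lower with siRNA2, where 25.3% and 28.9% of all tested genes were. The median log2 fold change was -0.18 with siRNA1 and -0.68 with siRNA2. With both siRNAs 23 of the 45 fell, where 11.1% of all tested genes did, and both comparisons share the control libraries. Between the siRNAs, 34 of the 45 were lower with siRNA2 than with siRNA1 and 6 were higher, where 32% and 28.4% of all tested genes were. E2F2, an activator of the E2F family, fell with both (-0.48 with siRNA1, -1.70 with siRNA2). TERT, the catalytic subunit of telomerase, fell with siRNA2 (-1.25, adjusted p = 1.23e-06), and its value with siRNA1 was -0.02 (adjusted p = 0.942). CCND2, a D-type cyclin, fell with siRNA1 (-1.46, adjusted p = 9.28e-06), and its value with siRNA2 was -0.30 (adjusted p = 0.219). SLC19A1, the reduced folate carrier, went against the list and rose with siRNA1 (2.33, adjusted p = 6.85e-06), with 4 to 12 counts in control libraries. SLC7A5 also went against it, as the 1 listed gene that rose with both (0.97 with siRNA1, 0.96 with siRNA2). Over all tested genes 11.8% rose with both.

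Of 15 genes that MYC is known to repress, 4 had too few counts to be tested. Of the 11 tested, 7 rose and 1 fell with siRNA1, where 25.1% of all tested genes rose and 25.3% fell. With siRNA2 9 rose and 1 fell, where 27.2% of all tested genes rose and 28.9% fell. The median log2 fold change was 0.38 with siRNA1 and 0.85 with siRNA2. CDKN1B, an inhibitor of cyclin-dependent kinases (p27), was at 29.5 ± 2.52 FPKM with siRNA1 and 19.95 ± 1.59 FPKM with siRNA2, against 9.16 ± 0.391 FPKM with the control siRNA (SD, n = 3 each). Its relative CDKN1A (p21), also a target of p53, was at 57.5 ± 2.1 FPKM with siRNA1 and 142.3 ± 7.59 FPKM with siRNA2, against 61.2 ± 2.81 FPKM with the control siRNA, and was called with siRNA2 (log2 fold change 1.22, adjusted p = 1.5e-14) but not with siRNA1 (-0.12, adjusted p = 0.117). HBP1, a repressor of cell cycle genes, rose with both (0.35 with siRNA1, 1.62 with siRNA2). GADD45A went against the list and fell with both (-0.65 with siRNA1, -0.63 with siRNA2), where 11.1% of all tested genes did. CEBPA, a differentiation factor, rose with siRNA1 (1.98, adjusted p = 0.000128) with 7 to 13 counts in control libraries, and its value with siRNA2 was 0.92 (adjusted p = 0.0685). Many genes on these lists are also targets of other factors, and the lists were compared with all tested genes without a test of the list. These lists were chosen with earlier results of these data known, so their shares are a description.

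**Figure D4:**
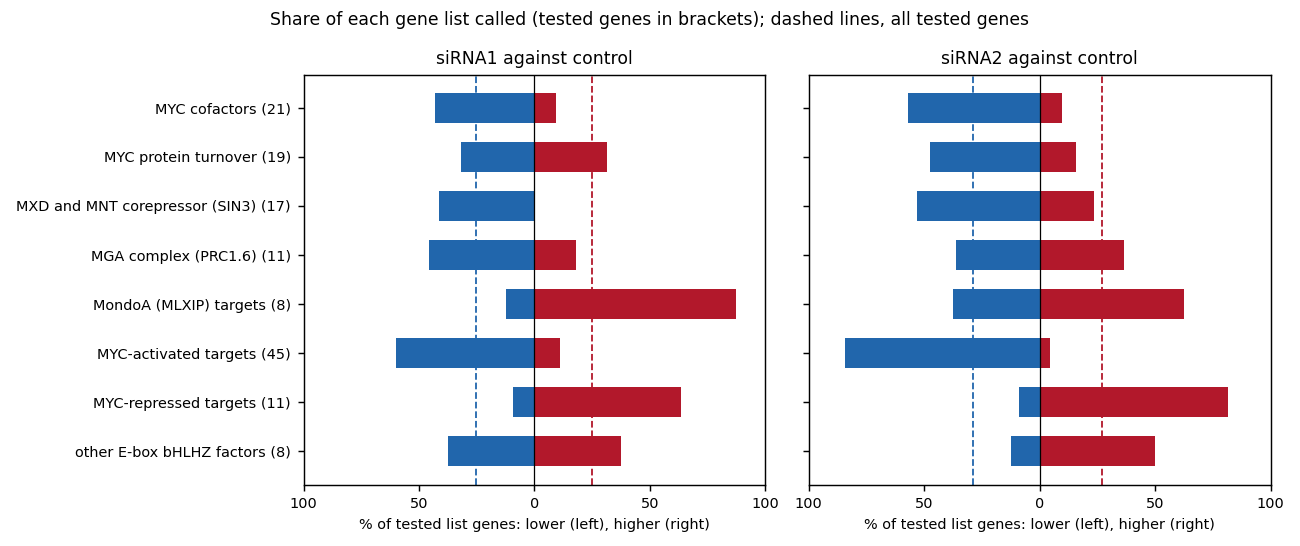
Share of the tested genes of each list called lower (to the left) and higher (to the right), in percent, with siRNA1 and with siRNA2 against control. Dashed lines mark the shares over all tested genes. The list of MYC-activated genes reaches 84.4% lower with siRNA2. All lists were chosen with earlier results of these data known.

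Among MYC cofactors, 2 of 21 rose and 9 fell with siRNA1, and 2 rose and 12 fell with siRNA2. The share called was 52.4% with siRNA1 and 66.7% with siRNA2, where 50.4% and 56.1% of all tested genes were called. The share lower was 42.9% with siRNA1 and 57.1% with siRNA2, where 25.3% and 28.9% of all tested genes were lower. The share higher was 9.52% with each, where 25.1% and 27.2% of all tested genes were higher. Of the cofactors 5 fell with both, where 11.1% of all tested genes did. Among them was ACTL6A, an actin-related subunit of chromatin remodellers (-0.64 with siRNA1, -0.42 with siRNA2). RUVBL1, a helicase-like ATPase, fell with siRNA2 (-0.83, adjusted p = 2.41e-11). Its value with siRNA1 was 0.12 (adjusted p = 0.0978). TRRAP, the scaffold of acetyltransferase complexes, fell with siRNA1 (-0.66, adjusted p = 1.87e-06), and so did EP400, a chromatin ATPase (-0.56, adjusted p = 2.8e-06). With siRNA2 TRRAP was at -0.15 (adjusted p = 0.159) and EP400 at -0.18 (adjusted p = 0.0609).

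On the list of genes for MYC protein turnover, 6 of 19 rose and 6 fell with siRNA1, and 3 rose and 9 fell with siRNA2. The share called was 63.2% with each siRNA, where 50.4% of all tested genes were called with siRNA1 and 56.1% with siRNA2. The share lower was 31.6% with siRNA1 and 47.4% with siRNA2, where 25.3% and 28.9% of all tested genes were lower. The share higher was 31.6% with siRNA1 and 15.8% with siRNA2, where 25.1% and 27.2% of all tested genes were higher. FBXO32, an F-box ubiquitin ligase subunit, rose with both (0.83 with siRNA1, 1.51 with siRNA2). SKP2, an F-box protein that ubiquitinates MYC and p27, fell with both and further with siRNA1 (-1.30 with siRNA1, -0.49 with siRNA2). SET, an inhibitor of the phosphatase that acts on MYC, fell with both (-0.41 with siRNA1, -0.94 with siRNA2). PIM1, a kinase that phosphorylates MYC, rose with siRNA1 (0.83, adjusted p = 3.28e-08) and was at 0.10 with siRNA2 (adjusted p = 0.361).

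The genes whose profile was most like that of MYC over the 9 libraries, among 11442 others with a mean of at least 1 FPKM, were THOC3 of mRNA export (Pearson r 0.997), MYBBP1A, a nucleolar MYB-binding protein (0.994), and MON1A, a vesicle traffic protein (0.992). THOC3 averaged 16.7 FPKM with siRNA1 and 6.95 FPKM with siRNA2, against 21.4 FPKM with the control siRNA. For MXD4 they were BTBD9, HMGXB3 and RNF44 (r from 0.995 to 0.996). For MXD1 they were SQLE and SC5D, both enzymes of cholesterol synthesis, and C15orf48 (r from 0.996 to 0.997). For MXD3 they were CSRP2, RPS28 and ATP5F1B (r from 0.979 to 0.991). These correlations are on log2 counts per 1000000, the libraries form 3 groups and share their scaling, and r is a description with no p.

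For each siRNA comparison, 1 of 16241 words of 7 bases was picked on the fold changes of these libraries, as the word whose presence in the 3 prime UTR went with the lowest t. Over 12589 tested genes with an annotated 3 prime UTR (GENCODE v29) it was AATTCCA for siRNA1 and GACCCTA for siRNA2, so lower values of genes with the word hold by construction. No siRNA sequence was used here, and whether either word belongs to an siRNA was not tested. MILIP holds both words. AATTCCA occurs in 16.9% of these UTRs and GACCCTA in 5.35%. Of the 10 network genes 1 holds AATTCCA, MLXIP, and 0 hold GACCCTA in their longest annotated 3 prime UTR, and any part of these words in the members' values was not tested. The sites of MILIP and of MLXIP are printed with the word in capitals.
MILIP, AATTCCA: tggagtcagggcAATTCCAaccaaga
MILIP, GACCCTA: tggtaacatagaGACCCTAtcgctac
MLXIP, AATTCCA: caccgtggtaggAATTCCAccaaggc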

How the data were processed

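For every gene and library the authors deposited a raw count and an FPKM value in 1 table. Dividing each deposited count by exonic size and library total gave 100% of the deposited FPKM values within 0.005. Per the submitters' processing notes Trimmomatic 0.30, HISAT2 2.0.1, HTSeq 0.6.1 and DESeq were used, in roles not stated. The notes name hg19, but the table's coordinates are those of GRCh38 (99.96% of 58394 identifiers overlap the same gene in GENCODE v29), and no source used here states strandedness. Libraries were grouped by title (NC, Si1, Si2).

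Low counts were removed with filterByExpr at a minimum count of 10 and a total of 15. After TMM scaling, 1 fit of 3 groups in edgeR 4.0.16 (R 4.3.3) gave two-sided quasi-likelihood tests, with calls at an adjusted p below 0.05. Of 60612 genes 45267 were not tested. Levels of genes are the authors' FPKM. The common biological coefficient of variation was 0.0641. On simulated data of 15345 genes for siRNA1 against control, 50 genes were changed at each fold size, none among the lowest expressed. Recovered were 40% of those changed 1.25-fold, 88% of those changed 1.5-fold and 100% of those changed 2-fold, with 9 false calls. Far fewer genes were changed than were called in the data, so these rates need not hold for the reported fits. Within groups, chi-square per gene between 2 libraries was 2.17 to 8.51, and none were identical. The high values were in pairs with control library 3 (8.51 and 7.26) or siRNA1 library 2 (6.15 and 7.58). The other pairs were at 2.17 to 3.62. Fold changes are log2, with 95% intervals from the fit. Alternatives were DESeq2 1.42.0, RLE scaling, testing without the filter, keeping genes with a mean FPKM of at least 1, limma 3.58.1 on log2(FPKM + 1) or log2(FPKM + 0.1), 2 groups alone, a replicate block and each library left out.

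Named genes are the 10 members, MILIP, up to 4 called genes of each list with the largest change, and the 3 genes most like MYC and each member called with both siRNAs. MYCN and MYCL were named as paralogs, and RAB24, PRELID1, SNRNP27 and PSMC3IP for their overlap. SLC7A5 was named as the MYC-activated gene that rose with both siRNAs, and GADD45A as the MYC-repressed gene that fell with both. PFKFB3 and KLF10 were named as MondoA targets with opposite calls. The members and lists were chosen with earlier results of these data known. Python 3.11.15, numpy 2.4.6, pandas 2.3.3 and matplotlib 3.10.9 were used for sequences, summaries and figures.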

Additional observations from a re-analysis of the deposited data

Results flagged for a closer look

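MXD1 differed between the siRNAs, with opposite calls against control and a log2 fold change of siRNA2 against siRNA1 of 1.96 (adjusted p = 7.2e-14 by edgeR, siRNA2 above siRNA1 in all libraries). Its siRNA1 call against control (adjusted p = 0.0379 by edgeR) was lost in 8 of 14 alternatives, where the calls are no longer opposite. MXD3 also had opposite calls against control, with a log2 fold change of siRNA2 against siRNA1 of -0.73 (adjusted p = 3.53e-07 by edgeR, siRNA2 below siRNA1 in all libraries). Its siRNA2 call against control (adjusted p = 0.0137 by edgeR) was lost in 2 of 14 alternatives.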

How the results depend on the processing

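The number of network genes called was 5 to 7 with siRNA1, 5 to 7 with siRNA2 and 6 to 9 for siRNA2 against siRNA1 over 14 alternatives, against 6, 7 and 8 as reported. Genes called in all were 6545 to 7750, 7388 to 8708 and 7762 to 9460, against 7738, 8606 and 9270. Of 420 recomputed values of single members 385 kept their call, 22 lost it, 13 gained it, and 0 called values changed sign. All 12 comparisons of a member that lost or gained a call are those of MYC, MAX, MXD1, MXI1, MLX and MGA with siRNA1, MAX and MXD3 with siRNA2, and MXI1, MNT, MLXIP and MGA between the siRNAs. MLX with siRNA1 passed with limma on log2(FPKM + 1) (0.13, adjusted p = 0.0455) and on log2(FPKM + 0.1) (adjusted p = 0.0484). The cause was not tested. Replicate numbers did not pair the libraries, since same-numbered libraries correlated at -0.051 to 0.097, and 3 of 9 libraries correlated best with their own number. With the replicate block the fit called 7750, 8604 and 9294 genes, and the block changed 1 call of a member, MXI1 between the siRNAs (adjusted p = 0.0199). Depth limits MYCL, MYCN and MLXIPL, whose counts were 40 or fewer per library, and intervals cover the spread between these libraries.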

Other observations

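Of 9 other factors of the same DNA-binding class that can bind an E-box, 8 were tested. Of these 3 rose and 3 fell with siRNA1, where 50.4% of all tested genes were called. With siRNA2 4 rose and 1 fell, where 56.1% of all tested genes were called. Over all tested genes 25.1% rose and 25.3% fell with siRNA1, and 27.2% rose and 28.9% fell with siRNA2. TFAP4, itself known as a target of MYC, fell with both siRNAs, at 1.68 ± 0.182 FPKM with siRNA1 and 1.2 ± 0.129 FPKM with siRNA2, against 3.4 ± 0.384 FPKM with the control siRNA (SD, n = 3 each). TFEB, a regulator of lysosome genes, rose with both (log2 fold change 0.87 with siRNA1, 0.45 with siRNA2). MITF, its relative, rose with siRNA1 (0.81, adjusted p = 8.92e-08 by edgeR) and was at -0.20 with siRNA2 (adjusted p = 0.0931 by edgeR). SREBF1, a regulator of lipid synthesis, rose with siRNA1 (0.62, adjusted p = 5.47e-07 by edgeR) and was at -0.11 with siRNA2 (adjusted p = 0.253 by edgeR).

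The SIN3 corepressor list, through which the MXD proteins and MNT act, had 0 of 17 genes higher and 7 lower with siRNA1, and 4 higher and 9 lower with siRNA2. Over all tested genes 25.1% were higher and 25.3% lower with siRNA1, and 27.2% were higher and 28.9% lower with siRNA2. SIN3A, the scaffold, fell with siRNA1 (-0.54, adjusted p = 8.8e-07 by edgeR) and was at 0.06 with siRNA2 (adjusted p = 0.498 by edgeR). ARID4A and ARID4B, a pair of related subunits, fell with siRNA1 (-0.38 and -0.39) and rose with siRNA2 (0.56 and 0.59). ING2, a reader of histone methylation, fell with siRNA2 (-1.07, adjusted p = 1.98e-08 by edgeR) and was at -0.10 with siRNA1 (adjusted p = 0.454 by edgeR).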
